A study of Rattus norvegicus with 12 samples.

Results

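Glutamate receptors and the proteins that anchor them were examined in rat hippocampal slice cultures treated with antibodies against Nogo-A, a membrane protein of oligodendrocytes and some neurons known for limiting neurite growth. The set was a list of 45 genes: 4 AMPA receptor subunits, 3 of their auxiliary proteins, 7 NMDA receptor subunits, 6 kainate and delta receptor subunits, 7 metabotropic glutamate receptors, 14 scaffold proteins of the postsynaptic density, and 4 kinase or adhesion genes (Camk2a, Camk2b, Nlgn1 and Nlgn3). A gene was counted as measured where a probe set of the array was annotated to its symbol and to no other. By that rule 45 of 45 genes were measured, through 86 of the 31042 probe sets, and they were set beside the 14217 genes measured in the same way.

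There were 4 groups of 3 arrays, and every group came from Wistar rats at postnatal day 7, whose hippocampi were cut into 350 µm slices and kept on inserts, 4 slices each, at 33 °C for 26 days. NT cultures received nothing. IgG cultures received a control IgG, 11C7 cultures a monoclonal antibody against amino acids 623 to 640 of Nogo-A, and 7B12 cultures a monoclonal antibody against amino acids 763 to 820, each at 3 µg/ml for the last 5 days, from day 21, with medium renewed every 2 days. Each array held RNA pooled from 24 cultures, and replicates came from different animals. NT and IgG together form the 6 control arrays, and with 3 arrays a group small differences could not be resolved.

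At an excitatory synapse, glutamate opens AMPA receptors, which carry the fast current, and NMDA receptors, which admit calcium when the postsynaptic membrane is also depolarised. Kainate receptors tune release and excitability, and metabotropic receptors act through G proteins. Scaffolds of the Dlg, Dlgap, Shank and Homer families hold these receptors in a layered postsynaptic density, where the kinase CaMKII, built from Camk2a and Camk2b, is among the most abundant proteins of the hippocampus.

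Values are log2 of the deposited ratio less the median of the array, so 1 unit is a 2-fold difference and 0 is the middle of that array. The ratio divides each probe set by its own reference, so a value says how an array stands beside other arrays for that gene and carries no level. Levels of different genes therefore cannot be ranked, and whether a gene or a marker is absent cannot be read. Of the 86 probe sets, 12 had a ratio under 1 as the median over the 12 arrays, and for Grid1, Grik3, Grm2 and Grm6 no other probe set was available.

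The largest differences among the arrays followed the replicate number (1, 2 or 3) in the sample titles, not the antibody. The median of the 45 genes was -0.51, -0.33, -0.75 and -0.41 in the arrays numbered 1 of NT, IgG, 11C7 and 7B12. In the arrays numbered 2 it was 0.64, 0.52, -0.08 and 0.61 in the same order. For number 3 it was 0.04, -0.10, 0.02 and -0.29. All 4 arrays numbered 1 were thus below all 4 numbered 2, and 11C7 2 stood below the other 3 arrays of its number. The labels do not say what a number marks, and fewer neurons and less RNA per neuron cannot be told apart in such pooled samples.

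**Figure D1:**
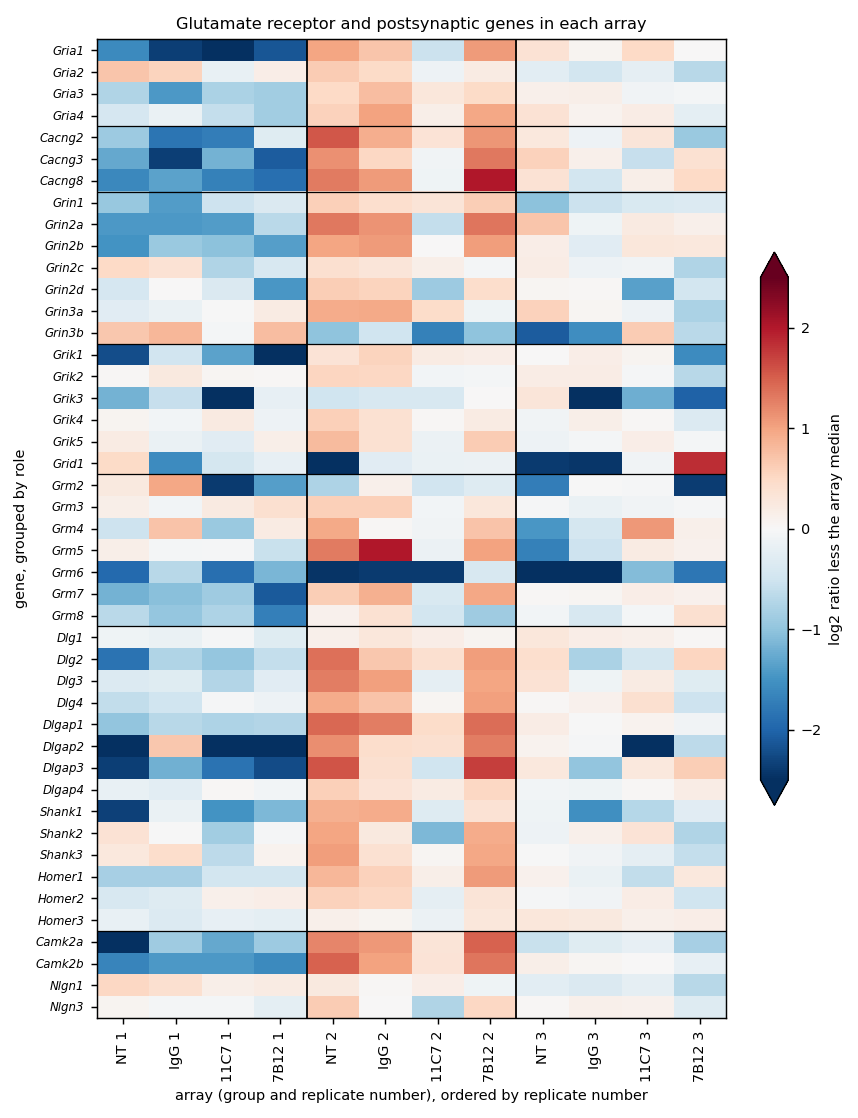
The heat map shows log2 ratio less the array median for the 45 genes (rows, grouped by role) in the 12 arrays (columns, ordered by replicate number; colours stop at -2.5 and 2.5). Arrays numbered 1 are mostly blue, those numbered 2 mostly red, and 11C7 2 is paler than NT 2, IgG 2 and 7B12 2.

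Among the 3 numbers, 22 of 45 genes differed at an adjusted p under 0.05, against 23.6% of all genes (limma, F test with the groups fitted, Benjamini-Hochberg over 14217 genes; this test was added after the data were seen). Between numbers 2 and 1, 21 genes were higher in number 2 and 0 lower, where 9.78% of all genes were higher and 9.17% lower. Relative to the mean of general neuron markers, 1 was higher and 27 lower, where 0.598% of all genes were higher. That scaling lowers every gene of the difference by the same amount, to a median of -2.03 over all genes. With it 87.4% of all genes differed among the numbers, so the 27 are not particular to the set. Without that scaling, the median difference over the 45 genes was 1.00 (range -1.61 to 3.24), against -0.02 over all genes, and 40 of 45 were above 0. Between numbers 3 and 1, 12 genes were higher and 2, Gria2 and Nlgn1, lower (9.31% and 9.71% of all genes). Number 2 was above number 3 in 3 genes, Grin1, Dlgap1 and Camk2b (2.45% of all genes), and below it in 0 (1.78%). The 4 arrays numbered 1 lay below the 4 numbered 2 without overlap in 22 of the 45 genes and in 12.3% of all genes. Replicate number took a median of 58.4% of a gene's variance in the set and 38.1% over all genes, and group took 10.9% and 18.3%. Group took the larger share in Grin2c, Grik2, Grin2d, Grid1, Grm2, Grm6, Shank2, Nlgn3 and Grik3, and number in all other genes of the set. These shares are not adjusted for there being 4 groups and 3 numbers, so a larger group share is no sign of a group difference. In Grik3 the shares were near equal, 19.9% for group and 19.4% for number. The count of 22 fell to 12 without NT 1 (9.51% of all genes), 12 without NT 2 (13.6%), 13 without 7B12 1 (11.5%) and 14 without IgG 2 (15.2%), and was 25 without 11C7 2 (24.5%).

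AMPA receptor subunits form the channel itself, and 4 of 4 differed among the numbers (23.6% of all genes). Gria1, which encodes the subunit inserted during long-term potentiation, was -1.60, 0.99 and 0.36 in NT 1, 2 and 3, and -2.35, 0.70 and 0.06 in IgG. In 11C7 it was -2.51, -0.54 and 0.49, and in 7B12 -2.13, 1.06 and 0.02. The number 1 array was the lowest of each group, and number 2 exceeded number 1 by 2.70 ± 0.31 (SE; adjusted p = 0.002). Gria3 and Gria4, subunits of the same channel, showed this order at smaller size, with number 2 above number 1 by 1.47 ± 0.18 (adjusted p = 0.003) and 1.19 ± 0.21 (adjusted p = 0.010). The 3 Gria4 probe sets gave 0.97, 1.56 and 1.03. The first did not pass and ran against the order in NT, at 0.50 in NT 1 and -0.20 in NT 2.

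Gria2, whose subunit makes the channel impermeable to calcium, had another pattern. Its values were 0.70, 0.64 and -0.26 in NT, 0.55, 0.48 and -0.45 in IgG, -0.18, -0.13 and -0.22 in 11C7, and 0.16, 0.21 and -0.69 in 7B12. Numbers 1 and 2 were alike (difference -0.01 ± 0.17) and number 3 was below number 1 by 0.71 (log2 difference -0.71 ± 0.17, adjusted p = 0.030). The auxiliary proteins Cacng2 (stargazin), Cacng3 and Cacng8 carry AMPA receptors to the surface and slow their closing. Their genes were 3 of 3 higher in number 2 than in number 1 (9.78% of all genes), by 2.17, 2.45 and 2.69 (adjusted p = 0.011, 0.005 and 0.004). The 2 Cacng2 probe sets gave 3.45 and 0.88, and the latter did not pass.

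NMDA receptor genes split, with 3 of 7 differing among the numbers (23.6% of all genes). Grin1, the subunit every NMDA receptor needs, was -0.95, 0.60 and -1.03 in NT, -1.40, 0.42 and -0.53 in IgG, -0.52, 0.33 and -0.39 in 11C7, and -0.36, 0.61 and -0.34 in 7B12. Number 2 was the highest array of each group, above number 1 by 1.30 ± 0.21 (adjusted p = 0.006) and above number 3 by 1.06 ± 0.21 (adjusted p = 0.037). The 2 Grin1 probe sets gave 2.09 and 0.51 for number 2 less number 1, and the latter did not pass. Grin2a, whose subunit takes over as hippocampal synapses mature, was -1.44, 1.33 and 0.70 in NT, -1.44, 1.12 and -0.11 in IgG, -1.39, -0.60 and 0.23 in 11C7, and -0.66, 1.34 and 0.13 in 7B12. Grin2b, which prevails early in development, was -1.49, 0.99 and 0.17 in NT, -0.94, 1.06 and -0.29 in IgG, -1.02, 0.01 and 0.29 in 11C7, and -1.39, 1.05 and 0.26 in 7B12. Both subunit genes were higher in number 2 than in number 1, by 2.03 ± 0.38 for Grin2a (adjusted p = 0.011) and 1.99 ± 0.29 for Grin2b (adjusted p = 0.004). The 3 Grin2a probe sets gave 2.55, 3.52 and 0.01, so the last of them showed no such difference. The 2 of Grin2b gave 1.68 and 2.29. Grin2c, Grin2d, Grin3a and Grin3b did not pass; Grin3b, a glycine-binding subunit, had the lowest difference of the set (-1.61 ± 0.58, adjusted p = 0.097).

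Among kainate and delta receptor genes 1 of 6 differed among the numbers, no more than the 23.6% of all genes. That gene was Grik1, a kainate channel subunit, at -2.21, 0.33 and 0.00 in NT, -0.48, 0.56 and 0.17 in IgG, -1.35, 0.20 and 0.08 in 11C7, and -4.49, 0.17 and -1.58 in 7B12. Number 2 exceeded number 1 by 2.45 ± 0.53 (adjusted p = 0.018), with 7B12 1 far below every other array. Grik2, the main kainate subunit of hippocampal pyramidal cells, stayed between -0.70 and 0.53 and its numbers 2 and 1 differed by 0.15 ± 0.16 (adjusted p = 0.572). Metabotropic receptors likewise had 1 of 7 differing, no more than the share of all genes. That gene was the presynaptic receptor Grm7, higher in number 2 than in number 1 by 1.83 ± 0.36 (adjusted p = 0.013). Grm5, the postsynaptic receptor coupled to calcium release, was 0.15, 1.30 and -1.70 in NT, -0.06, 2.00 and -0.52 in IgG, -0.03, -0.15 and 0.21 in 11C7, and -0.55, 1.01 and 0.11 in 7B12. Its number 2 arrays were the highest of NT, IgG and 7B12 and the lowest of 11C7, and the difference from number 1 was 1.16 ± 0.55 (adjusted p = 0.186).

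Scaffold genes were above 0 in 14 of 14 for number 2 less number 1 (47.9% of all genes), and 8 of the 14 passed as higher (9.78% of all genes). The guanylate kinase-associated genes were at the top: Dlgap2 3.24 (adjusted p = 0.029), Dlgap3 2.71 (adjusted p = 0.016) and Dlgap1 1.93 (adjusted p = 0.002), while Dlgap4 was 0.53 (adjusted p = 0.018). The Dlgap proteins join the Dlg layer to the Shank layer. The 2 Dlgap3 probe sets gave 3.26 and 2.16, and the latter did not pass. Of the Dlg family, Dlg2 (PSD-93), Dlg3 (SAP102) and Dlg1 (SAP97) passed at 1.91, 1.18 and 0.31 (adjusted p = 0.012, 0.024 and 0.044). Dlg4, encoding PSD-95, the main scaffold of mature synapses, was -0.62, 0.92 and 0.04 in NT, -0.50, 0.71 and 0.11 in IgG, -0.04, 0.04 and 0.39 in 11C7, and -0.13, 1.02 and -0.52 in 7B12. Its difference of 1.00 ± 0.30 did not pass (adjusted p = 0.057), although its 4 arrays numbered 1 lay below the 4 numbered 2. The 4 Dlg4 probe sets gave 0.16 to 1.96, and only that at 0.96 passed. With probe sets of a 12-array median under 1 left out of all genes, Dlg4 passed.

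Homer1, which links metabotropic receptors to Shank, was -0.83, 0.84 and 0.11 in NT, -0.83, 0.57 and -0.17 in IgG, -0.46, 0.14 and -0.61 in 11C7, and -0.46, 1.06 and 0.27 in 7B12. Number 2 was the highest array of each group, above number 1 by 1.30 ± 0.19 (adjusted p = 0.005), and the 5 Homer1 probe sets gave 0.97 to 1.63. Shank1, a scaffold of the deep layer, was -2.33, 0.89 and -0.11 in NT, -0.16, 0.94 and -1.53 in IgG, -1.49, -0.33 and -0.71 in 11C7, and -1.11, 0.36 and -0.29 in 7B12. Its difference of 1.74 ± 0.53 did not pass (adjusted p = 0.059). The 3 Shank1 probe sets gave 1.13, 1.30 and 2.78, and the last of them passed. With probe sets of a 12-array median under 1 left out, Shank1 passed as a gene.

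Camk2a, encoding the CaMKII subunit whose activation is needed for long-term potentiation, was -2.68, 1.22 and -0.56 in NT, -0.89, 1.08 and -0.31 in IgG, -1.27, 0.32 and -0.20 in 11C7, and -0.91, 1.48 and -0.83 in 7B12. All its number 2 arrays were above 0 and all its other arrays below, with a difference from number 1 of 2.46 ± 0.40 (adjusted p = 0.007). The 4 Camk2a probe sets gave 0.96 to 3.96, and those at 0.96 and 1.13 did not pass. Camk2b, the subunit that binds actin in spines, had the largest share of its variance on the number in the set, 94.0%, with a difference of 2.57 ± 0.22 (adjusted p = 0.001). Nlgn1, a neuroligin that joins the postsynaptic membrane to presynaptic neurexin, went the other way between numbers 3 and 1 (-0.70 ± 0.11, adjusted p = 0.007). The gene with the smallest share of variance on the number was Grid1, at 1.97%.

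**Figure D2:**
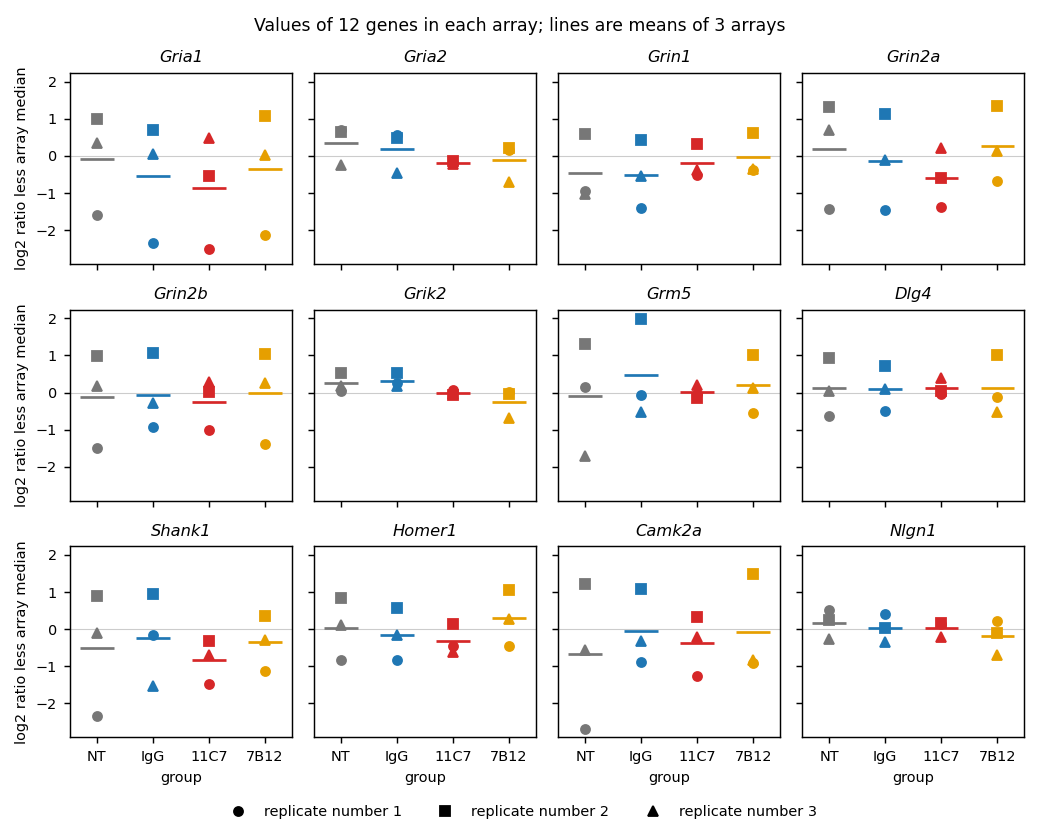
Each panel shows 1 of 12 genes in the 12 arrays (y axis, log2 ratio less the array median; x axis, group; circles, squares and triangles are replicate numbers 1, 2 and 3; lines are means of 3 arrays). Circles lie lowest and squares highest in most groups of Gria1, Grin2b and Camk2a, while group means differ by less than this spread.

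Neuronal marker genes moved with the same numbers. Of 20 general neuron markers, such as Snap25 and Syt1, 18 passed as higher in number 2 than in number 1 and 0 as lower (adjusted p under 0.05 over all genes), with a median difference of 1.89. Their mean per array was -1.40 to -0.92 in number 1, 0.46 to 1.22 in number 2 and -0.09 to 0.19 in number 3. Not every marker followed in each group: Tubb3 was -0.10 in 7B12 1 and -0.47 in 7B12 2. Markers of hippocampal principal neurons passed higher in 7 of 13 (1 lower), interneuron markers in 8 of 12 (1 lower), oligodendrocyte markers in 8 of 12, and astrocyte markers in 2 of 13 (2 lower). Microglia and macrophage markers passed as lower in 3 of 13 and endothelial markers in 2 of 9. Over all genes 9.78% passed as higher and 9.17% as lower, so counts of 1 to 3 genes in a list say little. The endothelial mean per array was -0.10 to 0.62 in number 1 and -1.06 to -0.62 in number 2, the opposite order to the neuron lists. The median difference of the 45 genes, 1.00, lay between that of all genes, -0.02, and that of the general neuron markers. Taken relative to the mean of those markers, a scaling chosen after seeing the data that shifts all genes alike, it was -1.02, with -2.03 over all genes. The part of cell content in these differences was not tested.

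**Figure D3:**
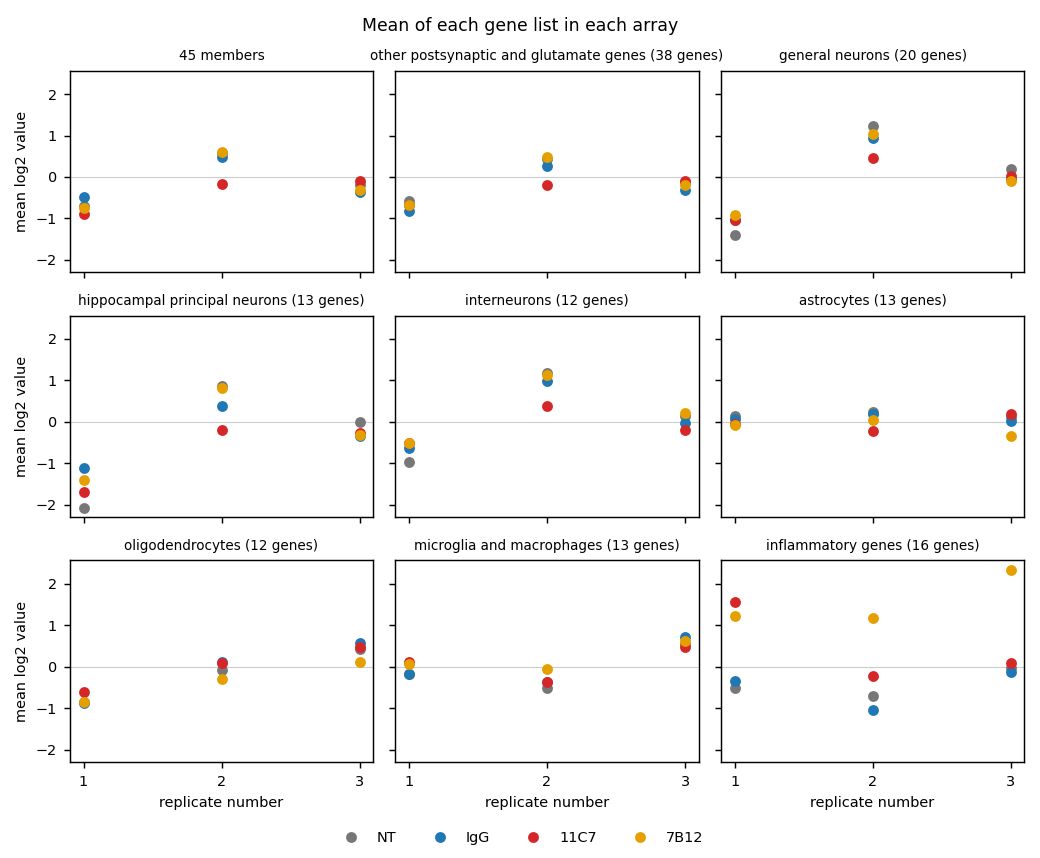
Each panel shows the mean of a gene list per array (y axis, mean log2 ratio less the array median; x axis, replicate number; colour, group). The 45 genes, the other postsynaptic genes and the 3 neuron lists are lowest at number 1 and, in NT, IgG and 7B12, highest at number 2 on this scale, with 11C7 (red) lowest of number 2; inflammatory genes are higher in 7B12 than in NT and IgG at each number.

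The promoters of some of the genes that moved most with the number are shown. Beside them is that of Nlgn1, which also varied with the number (77.6% of its variance) but in another order. The aim was to show how far the upstream sequences of genes that moved together differ. Promoters (250 bases before the annotated start, RefSeq, assembly GRCr8, 5′ to 3′ on the gene's strand) were found for 30 of the 45 genes. Capitals mark matches, on either strand, to a GC box (GGGCGG) or a TATA box (TATAAA). Camk2b lies at chr14:85147945-85148194 on the minus strand, Cacng3 at chr1:186632312-186632561 on the plus strand, Dlgap1 at chr9:117864208-117864457 on the plus strand and Nlgn1 at chr2:110930677-110930926 on the minus strand.
Camk2b: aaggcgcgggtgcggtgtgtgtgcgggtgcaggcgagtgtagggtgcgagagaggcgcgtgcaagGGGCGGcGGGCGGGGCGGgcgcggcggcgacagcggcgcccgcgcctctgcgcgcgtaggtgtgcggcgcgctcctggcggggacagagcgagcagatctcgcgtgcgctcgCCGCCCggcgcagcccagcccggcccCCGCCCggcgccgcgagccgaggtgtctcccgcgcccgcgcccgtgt
Cacng3: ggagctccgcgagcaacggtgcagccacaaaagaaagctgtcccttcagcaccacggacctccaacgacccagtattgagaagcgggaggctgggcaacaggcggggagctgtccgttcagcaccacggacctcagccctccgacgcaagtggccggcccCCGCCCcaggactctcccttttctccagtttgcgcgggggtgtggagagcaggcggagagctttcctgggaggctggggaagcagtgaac
Dlgap1: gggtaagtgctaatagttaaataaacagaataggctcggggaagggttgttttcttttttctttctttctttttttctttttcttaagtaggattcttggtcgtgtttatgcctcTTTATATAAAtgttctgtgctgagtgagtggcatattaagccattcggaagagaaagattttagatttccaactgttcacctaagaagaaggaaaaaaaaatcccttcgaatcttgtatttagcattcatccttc
Nlgn1: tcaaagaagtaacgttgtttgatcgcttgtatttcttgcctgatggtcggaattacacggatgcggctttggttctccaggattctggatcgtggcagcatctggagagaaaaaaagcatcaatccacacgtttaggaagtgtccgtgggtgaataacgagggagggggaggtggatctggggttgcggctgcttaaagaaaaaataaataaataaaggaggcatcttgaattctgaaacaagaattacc
Camk2b held 5 GC boxes and 80.4% G or C, and Cacng3 held 1 GC box and 64.8%. Dlgap1 held 2 TATA box matches, on opposite strands and overlapping in a single stretch, and 34.4%. Nlgn1 held no match and 44.4%. Over the 30 promoters 6 held a GC box, against 30.5% of all 33469 promoters, and 3 (Cacng2, Dlgap1 and Homer1) held a TATA box, against 12.9%. The short site of the cAMP response element, TGACG, was in 3 (Camk2a, Grik2 and Grin1; 18.2% of all), and the full site TGACGTCA, which contains it, in 0 (1.59%). The median G and C content was 58.6% in the 30 and 51.2% in all promoters. These letters describe the windows only.

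Whether neutralising Nogo-A changed these genes is asked by the contrast of each antibody with the mean of NT and IgG. No gene passed in either contrast: at an adjusted p under 0.05, 0 of 45 genes and 0% of all genes differed for 11C7, and 0 of 45 and 0% for 7B12 (limma, smallest adjusted p in the set 1.00 and 0.642). At an unadjusted p under 0.05 there was 1 gene of 45 for 11C7, against 2.99% of all genes, and 3 genes for 7B12, against 6.05%. An F test over the 4 groups gave 0 of 45 genes, also at an unadjusted p under 0.05 (3.63% of all genes). The authors' stated rule, an analysis of variance per probe set with at least a 1.2-fold change, took 0 of the 86 probe sets and 2.99% of all.

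Under 11C7 the genes leaned downward without passing. The log2 difference was below 0 in 38 of 45 genes, against 43.9% of all genes, with a median of -0.26 (range -2.12 for Dlgap2 to 1.28 for Grid1) against 0.03. By role the medians were -0.39 for AMPA subunits (4 of 4 below 0), -0.40 for their auxiliary proteins (3 of 3), -0.23 for NMDA subunits (5 of 7), -0.17 for kainate and delta subunits (5 of 6), -0.16 for metabotropic receptors (5 of 7), -0.27 for scaffolds (12 of 14) and -0.18 for kinase and adhesion genes (4 of 4). Against IgG alone the auxiliary proteins were at -0.05, and without 11C7 1 the medians of the AMPA subunits, the auxiliary proteins and the kinase and adhesion genes were 0.064, 0.15 and 0.064. The smallest adjusted p of every role was 1.00.

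Within replicate numbers this lean lay in the array 11C7 2. Less the mean of NT and IgG of the same number, the 45 genes had a median of -0.07 for 11C7 1, of -0.70 for 11C7 2 and of 0.09 for 11C7 3 (mean -0.23, SD 0.42, n = 3). The count below 0 was 24, 41 and 17 of 45, where 45.5%, 45.6% and 50.3% of all genes were below 0. 11C7 2 was the lowest of the 4 arrays of its number in 35 of the 45 genes (27.8% of all genes) and the highest in 0 (32.0% of all genes). The other arrays of that number were lowest in 4 genes (NT 2; 22.7% of all genes), 0 (IgG 2; 23.5%) and 6 (7B12 2; 26.0%), and 11C7 1 and 11C7 3 were the lowest of their numbers in 13 (23.0%) and 6 (25.4%). In the fit with number as a block, leaving out 11C7 2 gave a median of 0.00 and 22 of 45 below 0. Without the block it was -0.38 without 11C7 2, -0.39 without 11C7 3, -0.05 without 11C7 1, -0.06 without NT 2 or IgG 2, and -0.47 without NT 1. Every role had its lowest 11C7 median in number 2, from -0.36 for kainate and delta subunits to -0.94 for NMDA subunits. General neuron markers were also low in that array, by 0.61 (log2 difference -0.61 from NT 2 and IgG 2), principal neuron markers by 0.82 (-0.82), interneuron markers by 0.70 (-0.70) and astrocyte markers by 0.43 (-0.43), and fibroblast and meninges markers by 0.79 (-0.79). Oligodendrocyte and endothelial markers stood at 0.07 and 0.02, and inflammatory and blood cell genes at 0.64 and 0.60. The part of these lists in the lean was not tested.

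**Figure D4:**
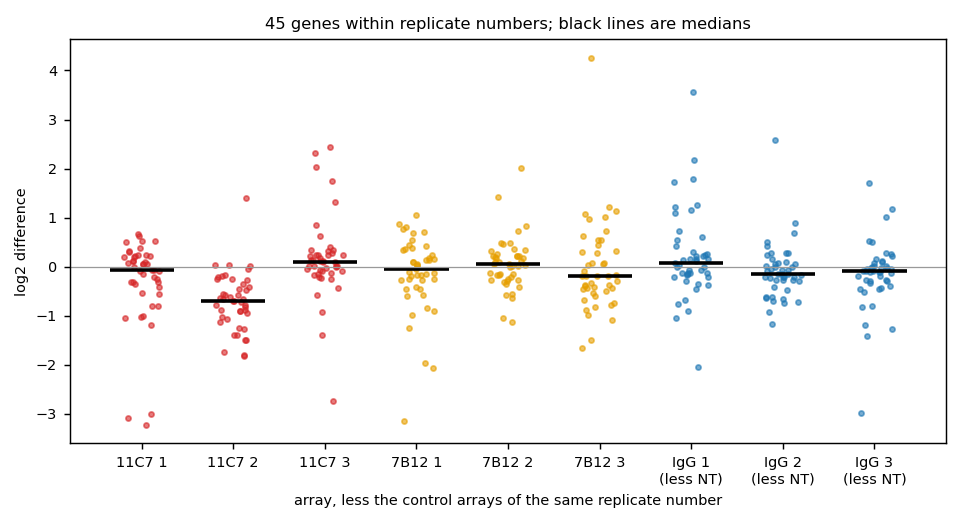
Points are the 45 genes, as the log2 difference (y axis) of each antibody array from the mean of NT and IgG of its replicate number, or of each IgG array from its NT array (x axis); black lines are medians. The 11C7 2 column is centred at -0.70, and the other 8 medians lie between -0.20 and 0.09.

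The genes nearest to the threshold under 11C7 were Grin2d, Grin2c and Shank2. Grin2d, an NMDA subunit of interneurons, was -0.42, 0.62 and 0.05 in NT, 0.00, 0.55 and 0.02 in IgG, -0.36, -0.91 and -1.37 in 11C7, and -1.46, 0.43 and -0.46 in 7B12. 11C7 2 and 11C7 3 were below all 6 controls and 11C7 1 was not; the difference was -1.02 ± 0.41 (SE; adjusted p = 1.00). Its 2 probe sets gave -1.75 and -0.28, so much of the change came from a single probe set.

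Grin2c, an NMDA subunit best known from cerebellum, was 0.50, 0.40 and 0.18 in NT, 0.37, 0.31 and -0.12 in IgG, -0.75, 0.15 and -0.09 in 11C7, and -0.41, -0.06 and -0.76 in 7B12. Every antibody array was below the NT and IgG arrays of its own number except 11C7 3, which lay between them, and 7B12 2, 11C7 2 and 11C7 3 overlapped the controls as a whole. The difference was -0.50 ± 0.23 under 11C7 (adjusted p = 1.00; -0.24 without 11C7 1) and -0.68 ± 0.23 under 7B12 (adjusted p = 0.642). Shank2, a scaffold beneath NMDA receptors, was 0.36, 0.98 and -0.14 in NT, -0.01, 0.25 and 0.13 in IgG, -0.87, -1.12 and 0.35 in 11C7, and -0.02, 0.93 and -0.75 in 7B12. 11C7 1 and 11C7 2 were below all controls and 11C7 3 was within them, at -0.81 ± 0.42 over the group (adjusted p = 1.00). The difference was -0.52 without 11C7 2 and -1.26 without 11C7 3. The 2 Shank2 probe sets gave -1.31 and -0.31, and in the latter 11C7 2, at 0.24, lay within the controls.

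With number as a block 5 of 45 genes had an unadjusted p under 0.05 for 11C7, all lower (Grin2d, Dlgap2, Shank3, Gria2 and Grin2c), against 5.99% of all genes, and the smallest adjusted p was 0.780. In 3 of 3 numbers, 11C7 was below the NT and IgG mean in 7 genes (Gria4, Grin2c, Grin2d, Grik1, Grik2, Dlgap2 and Shank3, against 10.6% of all genes) and above in Grid1 (14.2% of all genes). Grik1 counted as below on differences of -1e-04, -0.25 and -0.01, and Gria4 was at -0.04 in number 3. No gene had its 3 arrays of 11C7 below all 6 controls (0.788% of all genes) or above them (0.935%). Probe sets of a gene disagreed in sign under 11C7 for Shank1 (-2.07 to 1.15), Camk2a (-1.60 to 0.80), Grm6 (-0.50 to 1.15), Grin1 (-0.25 to 0.83) and Dlg4 (-0.23 to 0.43), among others.

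**Figure D5:**
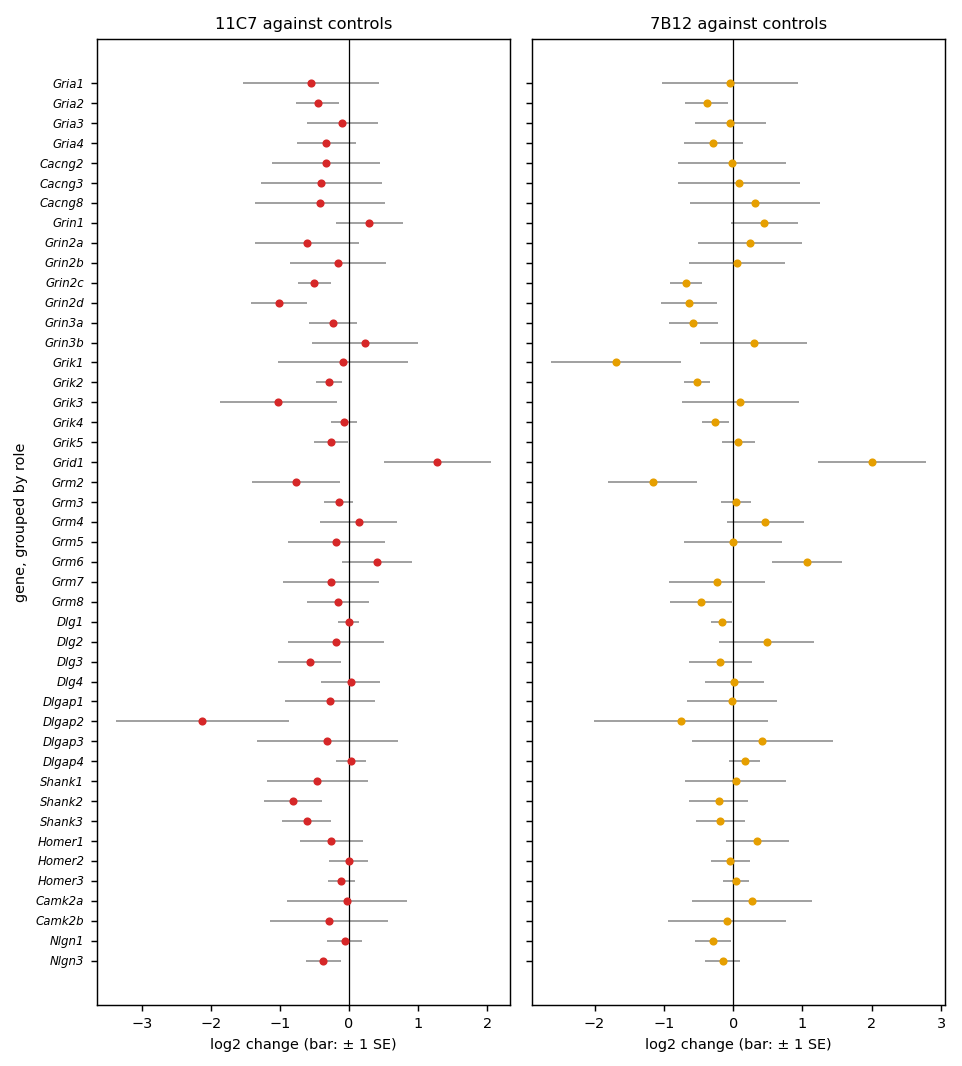
Points are log2 differences (x axis) of 11C7 (left) and 7B12 (right) from the mean of NT and IgG for the 45 genes (y axis, by role), with bars of 1 SE either side. Under 11C7 38 points lie left of 0 and under 7B12 25 do; 0 of 45 pass in either.

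7B12 showed no common direction. The difference was below 0 in 25 of 45 genes, against 47.9% of all genes, with a median of -0.02 against 0.01 and a range from -1.70 (Grik1) to 2.01 (Grid1). AMPA subunits were below 0 in 4 of 4 (median -0.17, range -0.38 to -0.04), scaffolds in 7 of 14 (median 0.00) and NMDA subunits in 3 of 7 (median 0.06). Within numbers the medians were -0.05, 0.05 and -0.20 (mean -0.07, SD 0.12, n = 3), and 7B12 3 was the lowest array of its number in 21 of 45 genes (28.6% of all genes). Inflammatory genes were above the matched controls by 1.65, 2.04 and 2.43 in 7B12 and by 1.99, 0.64 and 0.18 in 11C7. The group median of the 45 genes was -0.42 without 7B12 2 and 0.17 without IgG 2.

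After Grin2c, the smallest p under 7B12 was that of Grik2. It was 0.03, 0.53 and 0.19 in NT, 0.25, 0.52 and 0.18 in IgG, 0.06, -0.06 and -0.03 in 11C7, and 0.02, -0.05 and -0.70 in 7B12. The 3 arrays of 7B12 were below all 6 controls, which held for no other gene of the set and for 1.08% of all genes, though 7B12 1 lay close to the lowest control, NT 1. The difference was -0.52 ± 0.19 (adjusted p = 0.669), and it was -0.30 without 7B12 3. The share of 1 gene in 45 is near that of all genes.

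Grid1, a delta receptor that binds no glutamate in the usual sense and links to presynaptic neurexin, was 0.47, -2.87 and -2.40 in NT, -1.58, -0.28 and -2.42 in IgG, -0.44, -0.17 and -0.10 in 11C7, and -0.21, -0.15 and 1.85 in 7B12. NT 1 was above all 11C7 arrays and above 2 of the 3 of 7B12, so the groups overlapped, at 2.01 ± 0.78 for 7B12 (adjusted p = 0.718) and 1.28 ± 0.78 for 11C7 (adjusted p = 1.00). In 3 of 3 numbers 7B12 was below its controls in 9 genes (Gria2, Grin2c, Grin2d, Grik1, Grik2, Grik4, Grm2, Dlg1 and Nlgn1; 15.9% of all genes) and above in 8 (Grin1, Grik5, Grid1, Grm4, Grm6, Dlg2, Dlgap4 and Homer1; 19.5%). With number as a block 4 genes had an unadjusted p under 0.05, all lower (Grin2c, Grik2, Grik1 and Nlgn1), against 11.8% of all genes, with a smallest adjusted p of 0.268.

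Taking both antibodies as 6 arrays against the 6 controls, 0 of 45 genes passed (0% of all genes) and 34 were below 0 (46.8% of all genes), with a median of -0.17 against 0.02. Unadjusted p was under 0.05 in 4 genes (4.89% of all genes): Grin2c (-0.59 ± 0.19), Grik2 (-0.41 ± 0.15), Grid1 (1.64 ± 0.64) and Grin2d (-0.83 ± 0.33). With number as a block 4 genes were under 0.05 (9.9% of all genes), with Gria2 in place of Grid1. The smallest adjusted p without it was 0.798, for Grin2c. The contrasts of the antibodies share the control arrays, so their values for a gene are not independent.

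The control antibody was compared with no treatment to show what IgG alone did. At an adjusted p under 0.05, 0 of 45 genes and 0% of all genes differed, and at an unadjusted p under 0.05 0 of 45 and 1.91% (0 of 45 and 3.42% with number as a block). The difference was below 0 in 30 of 45 genes (51.0% of all genes) with a median of -0.11 and a range from -0.76 (Grik3) to 1.11 (Grm2). Grm2, a presynaptic autoreceptor, was 0.24, -0.76 and -1.72 in NT, 0.97, 0.13 and -0.02 in IgG, -2.39, -0.48 and -0.02 in 11C7, and -1.37, -0.33 and -2.38 in 7B12. IgG was above NT at each number, with 1.11 ± 0.74 and an adjusted p of 1.00, and NT 1 was above 2 of the 3 IgG arrays. Grik5, a high-affinity kainate subunit, was 0.20, 0.79 and -0.13 in NT, -0.16, 0.38 and -0.04 in IgG, -0.29, -0.14 and 0.16 in 11C7, and 0.15, 0.64 and -0.04 in 7B12. Its groups overlapped, at -0.23 ± 0.28 for IgG against NT (adjusted p = 1.00). Grik3, a kainate subunit measured only by a probe set of low ratio, was -1.18, -0.49 and 0.31 in NT, -0.57, -0.40 and -2.68 in IgG, -3.97, -0.41 and -1.21 in 11C7, and -0.20, 0.01 and -2.02 in 7B12. Single arrays set its group means, and IgG differed from NT by -0.76 ± 0.98 (adjusted p = 1.00).

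Between the antibodies, 7B12 less 11C7 was above 0 in 34 of 45 genes and below in 11 (51.2% of all genes below), with a median of 0.22 against -0.01; it was -0.16 without 7B12 2 and 0.45 without 7B12 1. No gene passed (0 of 45; 0% of all genes; 0 of 45 and 3.69% at an unadjusted p under 0.05; smallest adjusted p 1.00). Within numbers the median was 0.07, 0.78 and -0.21, so the upward lean again lay in number 2, where 11C7 2 was low. Grik1 had the smallest p, at -1.61 ± 1.08, and rested on 7B12 1 at -4.49: without that array it was -0.35. Shank2 was at 0.60 ± 0.49 and Grik5 at 0.34 ± 0.28. With number as a block, Homer1 (0.60 ± 0.22) and Grik1 had an unadjusted p under 0.05 (2 of 45, against 8.23% of all genes) and an adjusted p of 0.596.

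A further list of other postsynaptic and glutamate genes held 52 names, of which 38 were measured. Under 11C7 0 of 38 passed and 26 were below 0 (median -0.06; 43.9% of all genes below 0), and in 11C7 2 their mean was 0.55 below the matched controls (log2 difference -0.55). Between numbers 2 and 1, 18 of 38 passed as higher and 1 as lower, against 9.78% and 9.17% of all genes. For 11C7 against the controls 1 of 38 had an unadjusted limma p under 0.05, against 2.99% of all genes. The 3 genes named next were picked as those with the smallest unadjusted p in that contrast. Ppp1r9a, encoding neurabin, an actin-binding protein of spines, was -1.01, -1.60 and -0.98 in NT, -2.22, -1.98 and -1.12 in IgG, -2.32, -3.48 and -2.14 in 11C7, and -1.52, -2.04 and -1.05 in 7B12. Each 11C7 array was the lowest of its number, at -1.16 ± 0.37 (adjusted p = 1.00), while 7B12 was at -0.05. Grip1, an AMPA receptor adaptor, was at -0.55 ± 0.30 and Lrrc4, a postsynaptic adhesion protein, at 0.63 ± 0.48 (adjusted p = 1.00 each).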

How the data were processed

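Sample titles gave the groups and replicate numbers. Per the submitters' processing notes, GCOS 1.4 and MAS5 were used. The authors deposited ratios, each probe set divided by a reference of its own, which the series text gives as the control median. The median over the 12 arrays was 1 (within 0.0015) for 76.4% of probe sets, and that over the 6 controls for 11.2%, so all arrays appear to be the reference. A constant divisor leaves differences between arrays as they are. The deposited ratios were taken as log2 less the array median (the raw medians were 0.915 to 0.987), and probe sets with 1 symbol were averaged per gene. Of 31099 probe sets, 57 spike-in controls were left out. Of the rest, 20826 had 1 symbol in the platform annotation, 436 several and 9780 none; 20758 were matched by Entrez identifier, which changed 0 names.

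All 12 arrays entered the lmFit and eBayes fit of limma 3.58.1, run in R 4.3.3, with 1 mean per group, two-sided tests, Benjamini-Hochberg adjustment over 14217 genes and a threshold of 0.05. The fit was tested on simulated data. Fits with the replicate number as a block, other scalings, a pseudocount of 0.1, other controls and left-out arrays were alternatives.

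The genes, lists and tests were chosen with earlier results of these data known. Values in every array are given for 11 principal genes chosen across the roles and for the 3 genes with the smallest unadjusted p in 4 contrasts; others are given by range, count or role, and where their probe sets disagree. The genes named in the comparison of replicate numbers and the promoters shown were chosen after their values were seen. Promoter motifs were searched with Python 3.11.15.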

Additional observations from a re-analysis of the deposited data

How the results depend on the processing

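The 0 of 45 genes passing for 11C7, 7B12, both antibodies and IgG against NT stayed 0 under every alternative run. For 7B12 against 11C7 it stayed 0 under all but the replicate block without 11C7 1, where 1 gene passed (Homer1, 0.91, limma adjusted p = 0.048). The count over any group was rerun only with the replicate block and by the authors' analysis of variance, and was 0 in each. Pairing by replicate number is not stated in the labels. Residuals of same-number arrays correlated at 0.10 to 0.43 (17 of 18 pairs over 0.1) and of other arrays at -0.32 to 0.09, and 12 of 12 arrays correlated best with their own number, which is a hint from the data. In this balanced design the replicate block cannot move a difference, so the medians with it are the same (-0.26 for 11C7, -0.02 for 7B12); 0 genes passed with it, and the genes at an unadjusted p under 0.05 went from 1 to 5 for 11C7, from 3 to 4 for 7B12 and from 0 to 2 between the antibodies. The 7B12 median of the 45 genes was -0.15 against NT alone, and -0.15 with the replicate block and without 7B12 2. Leaving out an array moved it between -0.42 and 0.17, the median for both antibodies between -0.43 and 0.063 (-0.23 to -0.016 with the replicate block), that for IgG against NT between -0.32 and 0.21, that for 7B12 against 11C7 between -0.16 and 0.45, and the 11C7 median of the AMPA subunits between -0.46 and 0.064, of their auxiliary proteins between -0.76 and 0.15, of kinase and adhesion genes between -0.47 and 0.064 and of metabotropic receptors between -0.34 and 0.019 (0.25 with the replicate block and without 11C7 2). The kainate and delta subunits' 11C7 median was 0.040 with the replicate block and without 11C7 2. Grik5 in IgG against NT ranged from -0.44 to 0.028, the latter without NT 2. Genes differing among the numbers were 12 to 25 with an array left out, and relative to general neuron markers 1 gene (Camk2b) was higher in number 2 than in number 1 and 27 were lower, with 0.598% of all genes higher and 87.4% differing among the numbers, since that scaling shifts all genes alike. The cause of these shifts was not tested. With 3 arrays per group, and members that lie on shared arrays, the medians move with single arrays.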
